A study of Mus musculus with 10 samples.

Results

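Transcripts of fat cells were measured in biceps femoris, a hindlimb muscle, through 10 marker genes of adipocytes. The genes were taken by symbol from the deposited count table: Adipoq, Cfd, Retn, Lep, Fabp4, Cidec, Cidea, Car3, Adrb3 and Ucp1. Of the 15883 genes in the table, 9 were found under these symbols, and Ucp1 is not analysed here. Lep was too low for the genotype test, so 8 of the 13338 genes tested were markers. The RNA came from 5 Zfp407 transgenic mice and 5 wild type mice, all male C57BL/6J animals aged 5 weeks, which ate normal chow and then went without food for 16 hours overnight. The transgenic mice overexpress Zfp407, which encodes a zinc finger protein, and the promoter that drives the transgene is not given in the sources used here. The series title ties this overexpression to glucose homeostasis.

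Skeletal muscle holds adipocytes between its fibres and in the fat around the muscle, and a dissected muscle can carry some of both. White adipocytes store triglyceride in a single large lipid droplet and secrete hormones called adipokines. Among them are adiponectin (Adipoq), adipsin or complement factor D (Cfd), leptin (Lep) and, in mice, resistin (Retn). Brown adipocytes burn lipid for heat through the uncoupling protein Ucp1. The nuclear receptor Pparg, together with C/EBP factors, drives the program of adipocyte genes.

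The bases before the transcription start are shown for the 4 markers with a promoter window whose levels moved most closely together: Adipoq, Cfd, Retn and Cidec. Each window holds 250 bases upstream of the start, 5′ to 3′ on the strand of the gene, from RefSeq on build GRCm38.p6, and capitals mark a match to a motif searched.
Adipoq, chr16:23146286-23146535, plus strand: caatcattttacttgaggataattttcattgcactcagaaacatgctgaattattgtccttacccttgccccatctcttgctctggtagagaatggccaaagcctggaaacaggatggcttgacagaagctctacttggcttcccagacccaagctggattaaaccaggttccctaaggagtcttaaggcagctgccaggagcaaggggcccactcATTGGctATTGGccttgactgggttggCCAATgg
Cfd, chr10:79890603-79890852, plus strand: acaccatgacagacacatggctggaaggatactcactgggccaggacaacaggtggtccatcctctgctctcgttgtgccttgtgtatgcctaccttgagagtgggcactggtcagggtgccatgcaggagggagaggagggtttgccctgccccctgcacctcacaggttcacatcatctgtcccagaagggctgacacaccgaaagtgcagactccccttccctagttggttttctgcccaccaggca
Retn, chr8:3655520-3655769, plus strand: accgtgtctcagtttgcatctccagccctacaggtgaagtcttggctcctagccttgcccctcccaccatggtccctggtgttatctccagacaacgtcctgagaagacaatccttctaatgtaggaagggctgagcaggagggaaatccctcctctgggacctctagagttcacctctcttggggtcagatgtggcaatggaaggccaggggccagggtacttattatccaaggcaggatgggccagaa
Cidec, chr6:113435761-113436010, minus strand: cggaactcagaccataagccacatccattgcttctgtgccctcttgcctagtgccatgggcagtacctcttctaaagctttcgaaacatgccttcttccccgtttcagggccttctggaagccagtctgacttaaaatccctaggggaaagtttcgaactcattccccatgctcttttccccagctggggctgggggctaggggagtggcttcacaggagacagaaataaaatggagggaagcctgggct
Windows were found for 6 of the 10 genes, which gave 7 windows, since Cidec has 2 starts and the first is shown. Fabp4, Cidea, Car3 and Adrb3 are named only. The motifs were searched on both strands. CCAAT, the CCAAT box, was found in the Adipoq window alone among the 7, at 3 places that begin 34, 27 and 7 bases before the start, and in 33.8% of all 32851 windows. TTGCNNAA, a form of the C/EBP motif, was found in the Lep window and in the second Cidec window, and in 9.56% of all windows. AGGTCANAGGTCA, the direct repeat bound by PPAR and RXR, was found in none of the 7 windows and in 0.0335% of all windows. The single element AGGTCA, which that repeat contains, was found in the Ucp1 window and in 14.0% of all windows. A match is a description of letters in the window.

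Levels below are in CPM, a depth-scaled unit in which the counts of a gene are divided by the TMM-adjusted total of its library. Total counts ran from 15162400 to 19047834 in transgenic libraries and from 13530367 to 17814900 in wild-type libraries. Because the columns of the table tell the genotype but not the animal, each library goes by its genotype and the number of its column. Zfp407 was 489 ± 124 CPM in transgenic and 22.9 ± 1.73 CPM in wild-type libraries (SD, n = 5 each). Fast fibre markers summed to between 87733 and 118286 CPM in transgenic and between 93516 and 121756 CPM in wild-type libraries. Lymphocyte markers, a list of 20 genes with 19 in the table, summed to 118 and 153 CPM in transgenic libraries 1 and 2 and to 14.3 to 24.8 CPM in the other transgenic libraries. Their sum was 27.2 and 26.8 CPM in wild-type libraries 1 and 2, and 14.0 to 16.0 CPM in the other wild-type libraries. Cd3e was at 0 in transgenic library 5 and in 3 wild-type libraries. Rows that resemble ribosomal RNA took 9.62% to 17.3% of counts in transgenic and 14.3% to 33.9% in wild-type libraries.

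The adipokine transcripts differed among mice of the same genotype far more than most genes did. Adipoq, the hormone gene most restricted to adipocytes, had 77.2, 51.9, 10.1, 15.4 and 21.9 CPM in transgenic libraries 1 to 5. In wild-type libraries 1 to 5 it had 104.6, 50.9, 26.4, 19.7 and 11.2 CPM. The highest values stood in libraries 1 and 2 of both genotypes, and the groups overlapped over nearly their whole range. The share of rows that resemble ribosomal RNA had the same order of libraries as Adipoq in the wild-type group and another order in the transgenic group, and its part was not tested. The highest transgenic library exceeded the lowest 7.62-fold, and the highest wild-type library exceeded the lowest 9.35-fold. These levels came from counts between 155 and 1388 per library. The gene lies on chromosome 16 from 23146536 to 23158028 on the plus strand (GRCm38). The average was 35.3 ± 28.5 CPM in transgenic and 42.6 ± 37.7 CPM in wild-type libraries (SD, n = 5 each).

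Cfd, a serine protease of the alternative complement pathway that fat cells secrete, had 357, 270, 68.0, 77.9 and 109 CPM in transgenic libraries 1 to 5. In wild-type libraries 1 to 5 it had 447, 283, 137, 105 and 60.5 CPM. The same 4 libraries were highest as for Adipoq, and the remaining libraries of both genotypes overlapped. The average was 176 ± 130 CPM in transgenic and 206 ± 158 CPM in wild-type libraries (SD, n = 5 each). Cfd lies on chromosome 10 from 79890853 to 79892655 on the plus strand (GRCm38).

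Retn had 15.9, 9.27, 1.58, 2.88 and 4.12 CPM in transgenic libraries 1 to 5. In wild-type libraries 1 to 5 it had 18.3, 7.88, 5.00, 2.54 and 3.11 CPM. Resistin, its product, is a hormone named for its link to insulin resistance in mice. Its 4 highest libraries were again those of Adipoq, and the groups overlapped. The average was 6.75 ± 5.89 CPM in transgenic and 7.36 ± 6.45 CPM in wild-type libraries (SD, n = 5 each). The counts behind these levels ran from 25 to 286 in transgenic and from 39 to 232 in wild-type libraries. Retn lies on chromosome 8 from 3655770 to 3660110 on the plus strand (GRCm38).

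Leptin, which signals energy stores to the brain, gave few reads. Lep had 14, 6, 3, 2 and 14 counts in transgenic libraries 1 to 5, and 78, 4, 4, 12 and 1 counts in wild-type libraries 1 to 5. As levels this was 0.449 ± 0.365 CPM in transgenic and 1.51 ± 2.60 CPM in wild-type libraries (SD, n = 5 each). Wild-type library 1, at 6.14 CPM, held most of the Lep counts of its group, and the other wild-type libraries, from 0.0722 to 0.781 CPM, overlapped with the transgenic libraries, from 0.0945 to 0.901 CPM. Lep, on chromosome 6 from 29060220 to 29073877 on the plus strand (GRCm38), did not pass the filter on low counts. A fit without the filter put its log2 fold change at -1.75 ± 0.96 (SE), with an adjusted p of 0.375 in edgeR.

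**Figure D1:**
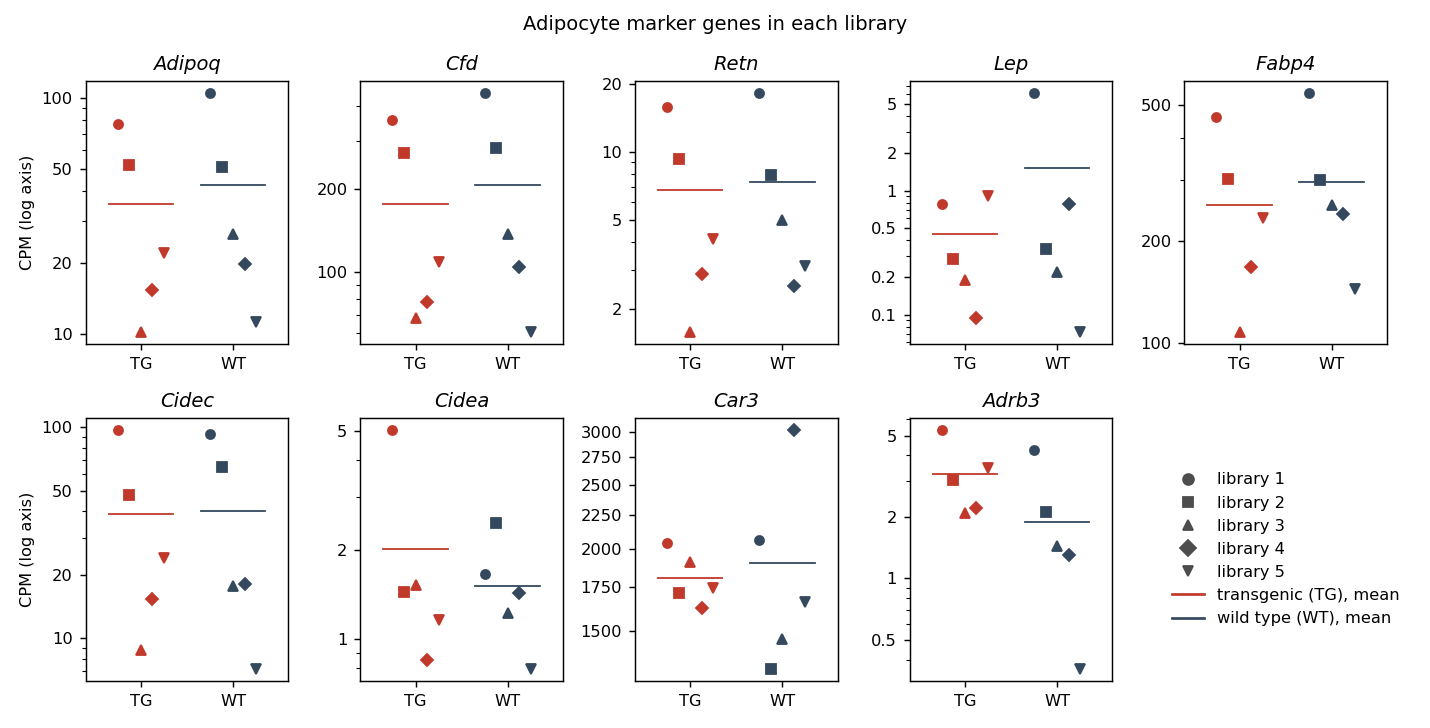
Levels of 9 adipocyte marker genes in CPM on a log axis, with the transgenic (TG) libraries left of the wild-type (WT) libraries, a symbol for each library number and a line at the group mean. Adipoq, Cfd, Retn, Fabp4 and Cidec share their 4 highest libraries, transgenic 1 and 2 and wild type 1 and 2, while Car3 is highest in wild-type library 4 at 3029 CPM.

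Among the genes of lipid handling, Fabp4 encodes the fatty acid binding protein of adipocytes, which capillary endothelium and macrophages also make. It lies on chromosome 3 from 10204088 to 10208576 on the minus strand (GRCm38). It had 460, 303, 108, 168 and 233 CPM in transgenic libraries 1 to 5, and 540.3, 301, 255, 239 and 144 CPM in wild-type libraries 1 to 5. The order of libraries was close to that of Adipoq with smaller steps between them, and the groups overlapped. The range was 4.26-fold in transgenic and 3.75-fold in wild-type libraries. Its average was 254 ± 136 CPM in transgenic and 296 ± 148 CPM in wild-type libraries (SD, n = 5 each). Endothelial markers, a list of 17 genes, summed to between 612 and 821 CPM in transgenic and between 680 and 730 CPM in wild-type libraries.

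Cidec, which helps lipid droplets of white adipocytes grow large, varied most among the markers tested. It had 97.4, 47.6, 8.80, 15.4 and 23.9 CPM in transgenic libraries 1 to 5, and 93.2, 64.6, 17.6, 18.2 and 7.15 CPM in wild-type libraries 1 to 5. Its 4 highest libraries were those of Adipoq, and the groups overlapped. The range was 11.1-fold in transgenic and 13.0-fold in wild-type libraries. The average was 38.6 ± 36.0 CPM in transgenic and 40.15 ± 37.0 CPM in wild-type libraries (SD, n = 5 each). Cidec lies on chromosome 6 from 113424634 to 113435760 on the minus strand (GRCm38).

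Its relative Cidea, a droplet protein abundant in brown fat of mice, was low. It had 5.06, 1.44, 1.52, 0.851 and 1.16 CPM in transgenic libraries 1 to 5, and 1.65, 2.46, 1.22, 1.43 and 0.794 CPM in wild-type libraries 1 to 5. Transgenic library 1 stood above the rest, and the other transgenic libraries lay within the wild-type range. These values rest on 18 to 91 counts in transgenic and 11 to 29 counts in wild-type libraries. Cidea overlaps the gene B430212C06Rik on the opposite strand, and the use of strand in the counting is not given in the sources used here.

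Car3, on chromosome 3 from 14863512 to 14872523 on the plus strand (GRCm38), encodes carbonic anhydrase 3, which adipocytes and muscle fibres both make in large amounts. It had 2038, 1714, 1908, 1625 and 1743 CPM in transgenic libraries 1 to 5, and 2059, 1314, 1458, 3029 and 1660 CPM in wild-type libraries 1 to 5. Its range was 1.25-fold in transgenic and 2.30-fold in wild-type libraries, the narrowest of the markers in each group, and the 4 libraries high in Adipoq were not set apart.

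Adrb3, the beta-3 adrenergic receptor through which noradrenaline starts lipolysis in fat cells, had 5.34, 3.03, 2.09, 2.22 and 3.47 CPM in transgenic libraries 1 to 5. In wild-type libraries 1 to 5 it had 4.25, 2.12, 1.44, 1.30 and 0.361 CPM. The lowest transgenic library lay below the 2 highest wild-type libraries, so the groups overlapped. The average was 3.23 ± 1.31 CPM in transgenic and 1.90 ± 1.46 CPM in wild-type libraries (SD, n = 5 each). The counts behind it ran from 33 to 96 in transgenic and from 5 to 54 in wild-type libraries. Adrb3 lies on chromosome 8 from 27225776 to 27250616 on the minus strand (GRCm38) and overlaps Gm45470 on the opposite strand.

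Per kilobase of exon, Car3 was the highest marker, with 630 ± 57.7 CPM per kilobase in transgenic and 665 ± 240 in wild-type libraries (SD, n = 5 each). Cfd followed with 191 ± 141 in transgenic and 224 ± 172 in wild-type libraries. Below it, the transgenic means were 56.6 for Fabp4, 25.6 for Adipoq, 20.8 for Cidec, 4.28 for Retn, 1.80 for Cidea, 0.957 for Adrb3 and 0.134 CPM per kilobase for Lep. The wild-type means had the same order, with 65.9 for Fabp4, 30.8 for Adipoq, 21.6 for Cidec, 4.66 for Retn, 1.36 for Cidea, 0.561 for Adrb3 and 0.451 CPM per kilobase for Lep. Intervals of the mean ± SD of neighbours in this order overlapped in both groups, except for Car3 and Cfd in both groups and Adrb3 and Lep in the transgenic group.

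The spread of the markers among mice was large beside that of most genes, but not beside that of some markers of other cells. It was taken as the SD of log2 CPM within groups, pooled over both genotypes. The median over the 8 markers tested was 1.01, against 0.27 over all 13338 genes tested, and all 8 lay above that median of all genes. Cidec had 1.43, Adipoq 1.23, Retn 1.21 and Cfd 1.11. Of all genes tested, 0.120% varied more than Cidec, 0.420% more than Adipoq, 0.487% more than Retn and 0.952% more than Cfd. Adrb3 had 0.90, Cidea 0.76 and Fabp4 0.74, with 2.18%, 3.47% and 3.70% of genes above them. Car3 had 0.35, and 29.8% of genes varied more. Among lists of other cells, the median was 1.16 for tendon, 1.14 for slow fibre, 1.11 for hepatocyte and 1.09 for lymphocyte markers. It was 0.81 for nerve and Schwann cell, 0.64 for erythroid, 0.48 for macrophage and 0.41 for stromal progenitor markers. The lowest were 0.33 for skin, 0.26 for fast fibre and 0.24 for endothelial markers. The spread was of like size in each genotype for Adipoq, at 1.21 in transgenic and 1.24 in wild-type libraries, whereas for Adrb3 it was 0.53 in transgenic and 1.16 in wild-type libraries. Without transgenic library 1 the pooled SD of Cidea was 0.47, and without wild-type library 4 that of Car3 was 0.21. For Adrb3 the pooled SD was 0.62 without wild-type library 5, where it had 5 counts. In whole muscle, fewer adipocytes and less of these RNAs per adipocyte cannot be told apart.

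**Figure D2:**
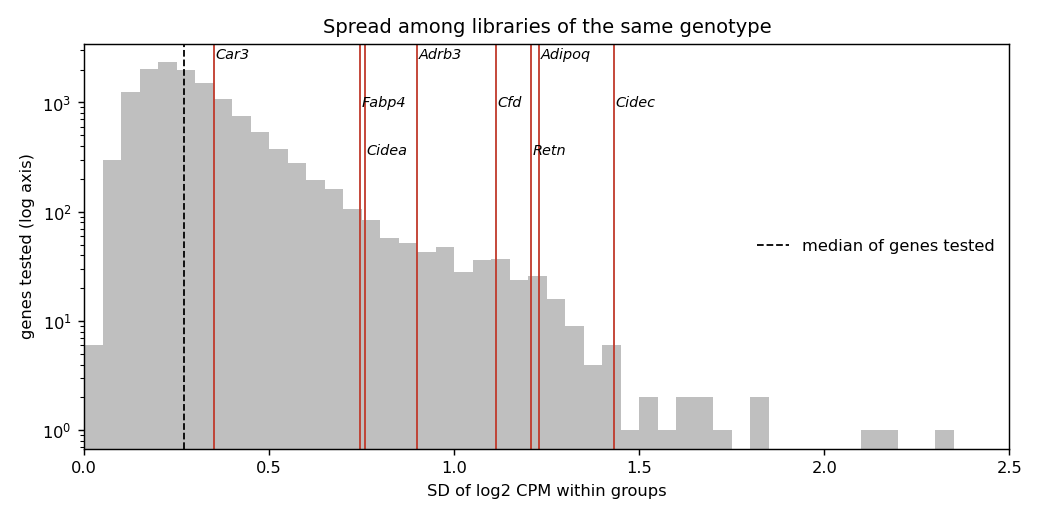
Histogram of the SD of log2 CPM within groups over the 13338 genes tested, with the number of genes on a log axis, a dashed line at their median and a red line for each of 8 adipocyte markers. Cidec, Adipoq, Retn and Cfd lie in the far right tail at 1.11 or more, while Car3 at 0.35 lies near the bulk of genes.

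Cfd, Fabp4, Cidec and Retn moved with Adipoq among libraries. The question was which transcripts followed Adipoq from mouse to mouse, and each gene was compared with it by the correlation of log2 CPM over the 10 libraries. Of the 13337 other genes tested, 27 passed an adjusted permutation p of 0.05 with a positive Pearson r, 0.202% of genes, and 1 gene, 0.0075%, passed with a negative r. That gene, named after the values were seen, was Adi1, an enzyme of methionine salvage, with r = -0.95 and rho = -0.95. Of the 7 other markers tested, 4 were among the 27: Cfd, Fabp4, Cidec and Retn. The median r over all genes was 0.01, 1475 genes had an unadjusted p below 0.05, and Spearman's rho called 23 genes, 14 of them also called by r.

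Cfd followed Adipoq most closely, with r = 0.99 and rho = 0.98 (n = 10, two-sided permutation p = 1e-05 for r, the smallest that 100000 resamples can give; adjusted p = 0.0133 for r and 0.0400 for rho). Its count was 4.27 to 6.71 times that of Adipoq in the same library, while Adipoq itself varied 10.3-fold over the 10 libraries. Cidec had r = 0.98 and rho = 0.93 (n = 10, permutation p = 3e-05, adjusted p = 0.0191 for r and 0.0814 for rho). Retn had r = 0.97 and rho = 0.95 (n = 10, permutation p = 3e-05, adjusted p = 0.0191 for r and 0.0681 for rho). For Cidec the count was 0.639 to 1.27 times that of Adipoq, and for Retn 0.129 to 0.277 times. Both ends for Retn rest on few counts, 39 in wild-type library 4 and 43 in wild-type library 5. Fabp4 had r = 0.97 and rho = 0.99 (n = 10, permutation p = 1e-05, adjusted p = 0.0133 for r), but its ratio to Adipoq ran from 5.17, in wild-type library 1, to 12.9, in wild-type library 5. On the log2 scale Fabp4 changed by 0.59 ± 0.06 (SE of the slope) for each unit of Adipoq, whereas the slope was 0.90 ± 0.04 for Cfd, 0.95 ± 0.08 for Retn and 1.13 ± 0.09 for Cidec.

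The relation was read again with fewer libraries, of which at most 2 of the 4 highest in Adipoq were left out at a time. Without transgenic library 1 and wild-type library 1, the 2 libraries farthest from the median of Adipoq, r was 0.99 for Cfd, 0.96 for Cidec, 0.93 for Retn and 0.93 for Fabp4. With each genotype centred on its own mean, r was 0.99 for Cfd, 0.98 for Cidec, 0.97 for Retn and 0.97 for Fabp4. Without the lymphocyte-rich transgenic libraries 1 and 2, r was 0.99, 0.97, 0.96 and 0.96 in the same order. The adjusted p over all genes rose with fewer libraries: it was 0.278 for each of these 4 genes without the farthest 2 and 0.209 to 0.247 without transgenic libraries 1 and 2. With a single library left out, r stayed at 0.949 or above for the 4 genes, but some calls were lost. For Cfd and Fabp4 this was so without transgenic library 4, wild-type library 1 or wild-type library 2 (adjusted permutation p from 0.0539 to 0.0715). The call of Retn was lost without transgenic library 4 or 5 or wild-type library 1, 2 or 3 (0.0608 to 0.0849), and that of Cidec without transgenic library 1, 2, 3 or 4 or wild-type library 1 or 2 (0.0532 to 0.0865).

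Adrb3, Cidea and Car3 did not pass. For Adrb3 r was 0.69 and rho 0.71 (n = 10, permutation p = 0.0211, adjusted p = 0.359). Its r was 0.88 (adjusted permutation p = 0.0410) with each genotype centred on its own mean, and 0.48 without the 2 libraries farthest from the median of Adipoq. The permutation after centring shuffled values across genotypes and did not allow for the group means removed, so its p can be too small. Cidea had r = 0.67 and rho = 0.64 (n = 10, permutation p = 0.0244, adjusted p = 0.372), and 0.63 without those 2 libraries. Car3 had r = -0.001 and rho = 0.15 (n = 10, permutation p = 0.998, adjusted p = 0.999), with a ratio to Adipoq that ran from 19.7 to 188. The ratio of Lep to Adipoq varied 10.9-fold over the libraries, and its low counts give no more than that description.

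**Figure D3:**
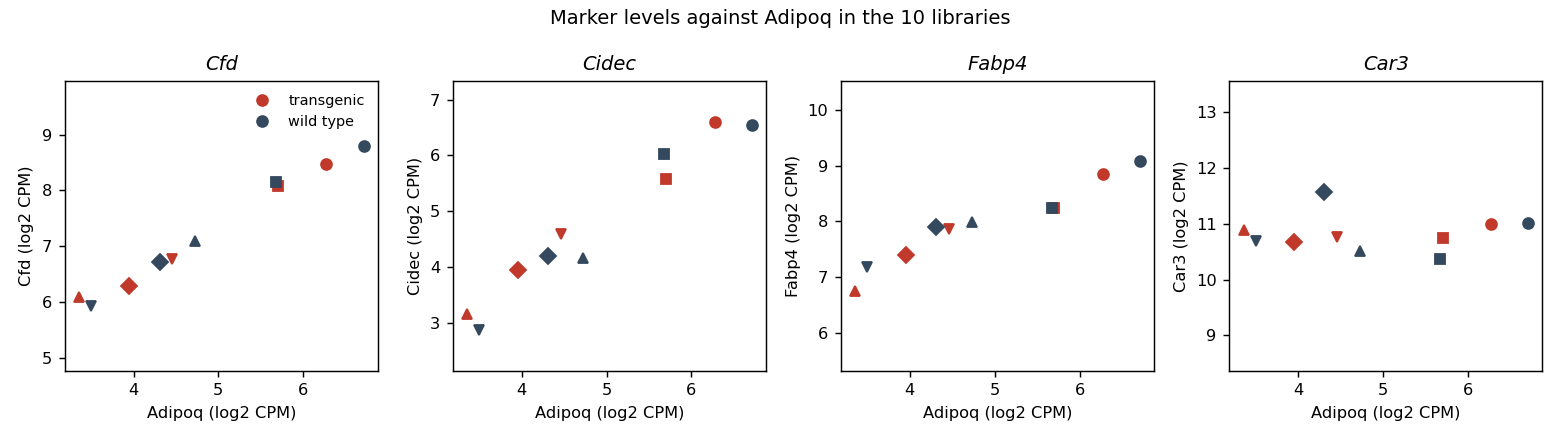
Levels of Cfd, Cidec, Fabp4 and Car3 against Adipoq in log2 CPM, with transgenic libraries in red, wild-type libraries in blue and a symbol for each library number as in the plot of single markers. The points of both genotypes lie along one line for Cfd (r = 0.99), Cidec (0.98) and Fabp4 (0.97, with a shallower slope of 0.59), whereas Car3 shows no slope (r = -0.001).

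The 4 libraries highest in Adipoq, transgenic 1 and 2 and wild type 1 and 2, were also the 4 highest for Cfd, Retn, Fabp4 and Cidec, 4 of the 7 other markers tested. The order among the 4 libraries differed between these genes. Of all 13338 genes tested, 228 (1.71%, with Adipoq itself among them) had the same 4 highest libraries, a count made after the values were seen. The same 4 libraries were highest in the sum of lymphocyte markers and in that of macrophage markers. Macrophage markers summed to 327 and 352 CPM in transgenic libraries 1 and 2 and to 289 and 353 CPM in wild-type libraries 1 and 2. Transgenic libraries 3 and 4, at 275 and 283 CPM, and wild-type library 3, at 272 CPM, came close to wild-type library 1. The part of these cells in the shared libraries was not tested. The sum of other white fat genes did not share the 4 libraries, with 2481 CPM in transgenic library 5 and 2159 CPM in transgenic library 2. The summed level of the 5 genes ran from 196 to 1007 CPM in transgenic and from 226 to 1203 CPM in wild-type libraries.

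Other transcripts of fat cells were read from gene lists. Of 28 other genes of white fat tested, 24 had a positive r with Adipoq, the median r was 0.73, and 4 passed the adjusted threshold by r: Slc7a10, Pparg, Acvr1c and Plin1. Slc7a10 is an amino acid transporter of white adipocytes, Pparg the nuclear receptor that drives fat cell differentiation, Acvr1c a receptor for activins and related ligands, and Plin1 the coat protein of adipocyte lipid droplets. Pparg averaged 7.88 ± 4.44 CPM in transgenic and 8.47 ± 4.70 CPM in wild-type libraries (SD, n = 5 each), with r = 0.98 and rho = 0.98 (n = 10, adjusted permutation p = 0.0133 for r and 0.0400 for rho). Plin1 averaged 9.08 ± 6.84 CPM in transgenic and 9.83 ± 7.64 CPM in wild-type libraries (SD, n = 5 each), with r = 0.96 and rho = 0.93 (n = 10, adjusted permutation p = 0.0191 for r and 0.0741 for rho). The white fat list had a median SD of log2 CPM within groups of 0.82.

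Genes of brown fat gave no call. Of 18 named, 15 were in the table and 11 were tested. Of those 11, 5 had a positive r, the median r was -0.09 and none passed an adjusted permutation p of 0.05 by r or by rho, at the background of 0.202%. The 2 with an unadjusted p below 0.05 were Ebf2, a transcription factor of brown fat precursors, with r = 0.75 and Prdm16, a regulator of brown fat identity, with r = 0.69. Dio2, the deiodinase that activates thyroid hormone, averaged 1.29 ± 0.288 CPM in transgenic and 1.50 ± 0.687 CPM in wild-type libraries (SD, n = 5 each). Elovl3, a fatty acid elongase of brown fat, was below the filter at 0.722 ± 0.786 CPM in transgenic and 0.149 ± 0.143 CPM in wild-type libraries (SD, n = 5 each). Among 20 genes for making fatty acids and triglycerides, Acaca, the carboxylase that makes malonyl-CoA, passed with r = 0.93 (adjusted permutation p = 0.0359 for r and 0.0681 for rho). Among 16 genes of lipolysis and the lipid droplet tested, Pde3b, a phosphodiesterase through which insulin restrains lipolysis, passed with r = 0.97. Prkar2b, a regulatory subunit of protein kinase A, passed with r = 0.95. The adjusted permutation p for rho was 0.0424 for Pde3b and 0.0681 for Prkar2b. Among 14 genes of adipokine receptors and their targets none passed by r or by rho, and 2 had an unadjusted permutation p below 0.05.

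The 10 genes outside the markers with the highest r with Adipoq over the 10 libraries, among those with a mean of at least 1 CPM, were Slc1a3, Fam13a, Slc7a10, Pparg, Asns, Acvr1c, Ccnd2, Dram1, Pde3b and Ppp2r1b. Their r ran from 0.97 to 0.99 and their rho from 0.95 to 0.98 (n = 10, adjusted permutation p up to 0.0267 for r and from 0.0400 to 0.0625 for rho). Without the 2 libraries farthest from the median of Adipoq, r ran from 0.95 to 0.99. Slc1a3, a glutamate transporter, had a mean of 9.20 CPM over the 10 libraries and an SD of log2 CPM within groups of 0.99. Fam13a had a mean of 32.9 CPM and Ccnd2, which encodes cyclin D2, one of 16.3 CPM. The spread of Ccnd2 (0.40), and of Ppp2r1b (0.40), a scaffold subunit of protein phosphatase 2A, was smaller than that of each of the 4 markers that followed Adipoq.

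Markers of other cells were read beside these relations. For 5 lymphocyte markers tested of 20 named, r with Adipoq ran from 0.58 to 0.70, and for 12 macrophage markers from 0.18 to 0.80. All 13 slow fibre markers had a positive r, up to 0.59, and so had all 5 erythroid markers tested, from 0.40 to 0.50. Of the 14 fast fibre markers 1 had a positive r, and the median was -0.54. Endothelial markers had a median r of 0.04, stromal progenitor markers of -0.02, tendon markers of -0.29, hepatocyte markers of -0.30 and nerve and Schwann cell markers of -0.08. No marker of these lists passed the adjusted threshold. The defining genes had r = 0.60 for Ptprc, 0.47 for Myh7, 0.42 for Pecam1 and -0.31 for Alb (n = 10, adjusted permutation p from 0.475 to 0.765). Ptprc, carried by all leukocytes, had 41.9 and 60.5 CPM in transgenic libraries 1 and 2, which were high in Adipoq, 7.34 to 16.6 CPM in the other transgenic libraries and 7.58 to 14.0 CPM in wild-type libraries. The part of these cells in the relations was not tested. With the 3 rows that resemble ribosomal RNA left out before scaling, r was 0.99 for Cfd, 0.98 for Cidec, 0.97 for Retn and 0.97 for Fabp4.

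**Figure D4:**
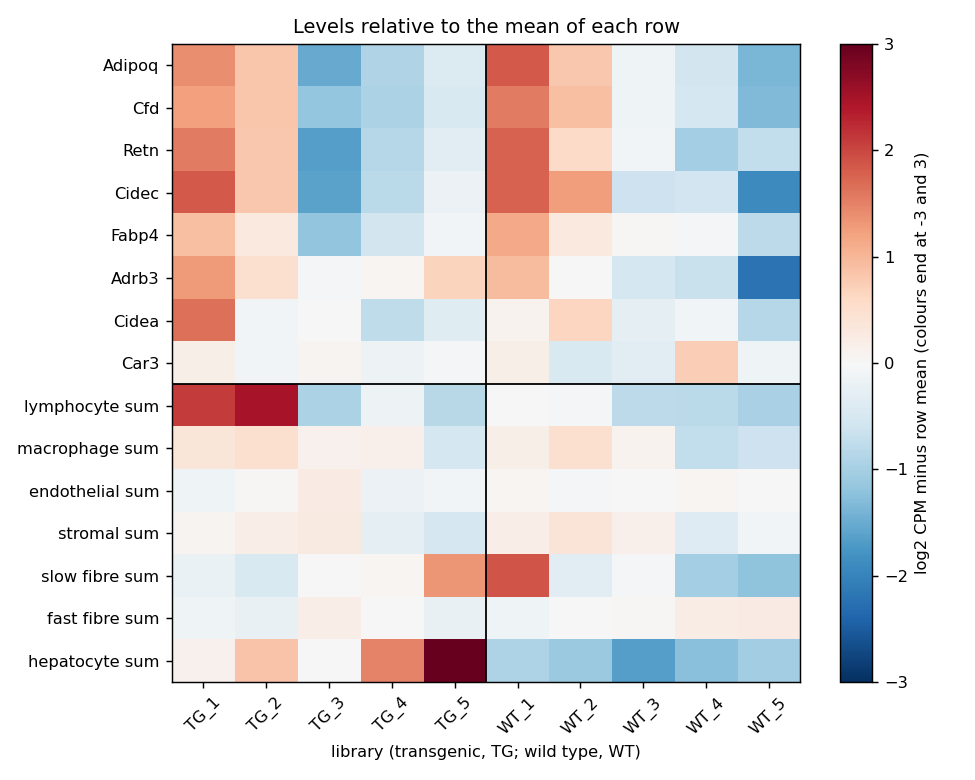
Levels of 8 adipocyte markers and summed levels of 7 marker lists of other cells, in log2 CPM minus the mean of each row, by library with transgenic (TG) left of wild type (WT) and darker colours farther from the mean. The upper 5 rows share their pattern among libraries, the lymphocyte row is highest in transgenic libraries 1 and 2 (118 and 153 CPM), followed by wild-type libraries 1 and 2 (27.2 and 26.8 CPM), and the endothelial row is nearly even.

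No adipocyte marker passed the test of genotype. The comparison asked whether Zfp407 overexpression went with other levels of fat cell transcripts in muscle. With edgeR's quasi-likelihood test and Benjamini-Hochberg adjustment over 13338 genes, 711 genes passed an adjusted p of 0.05, 5.33% of those tested, with 571 higher (4.28% of genes) and 140 lower (1.05% of genes) in transgenic muscle. Of the 8 markers tested 0 passed. An unadjusted edgeR p below 0.05 was found for 0 of the 8 and for 2412 of all 13338 genes. DESeq2 called 0 markers and 1230 of the 15883 genes it fitted. Transgenic and wild-type libraries were fully apart in 8.04% of all genes tested and in 0 of the markers. The median log2 fold change of the markers was -0.09, against 0.003 over all genes. Above 0 were 2 of the 8 markers and 6718 of all 13338 genes.

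Except for Adrb3, the fold changes were smaller than their standard errors. The log2 fold change was -0.26 ± 0.61 for Adipoq, -0.23 ± 0.56 for Cfd, -0.10 ± 0.61 for Retn and -0.05 ± 0.69 for Cidec (SE; edgeR adjusted p from 0.875 to 0.981). With errors of this size, differences of the size seen cannot be told from none, which does not show that the levels were equal. Fabp4 had -0.22 ± 0.38 (SE; edgeR adjusted p = 0.832) and Car3 -0.08 ± 0.20 (SE; edgeR adjusted p = 0.892). Adrb3 had 0.79 ± 0.46 (SE; edgeR unadjusted p = 0.108, adjusted p = 0.403), the smallest p among the 8, and Cidea 0.42 ± 0.47 (SE; edgeR adjusted p = 0.709). In the authors' deposited table the log2 fold changes were -0.29 for Adipoq, -1.77 for Lep and 0.77 for Adrb3, with adjusted p-values of 0.929, 0.476 and 0.412, and no marker passed 0.05.

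The direction of 7 of the 8 markers turned with a single library left out, Adrb3 being the exception. Without wild-type library 1, the richest in Adipoq, the log2 fold change was 0.35 for Adipoq, 0.23 for Cfd, 0.52 for Retn, 0.08 for Fabp4 and 0.49 for Cidec. Without transgenic libraries 1 and 2 it was -1.44 ± 0.61 for Adipoq, -1.29 ± 0.54 for Cfd, -1.36 ± 0.60 for Retn, -0.81 ± 0.37 for Fabp4 and -1.33 ± 0.70 for Cidec (SE; edgeR adjusted p from 0.237 to 0.357). Retn was also above 0 without transgenic library 3, 4 or 5 (0.15, 0.09 and 0.03), and Cidec without those libraries (0.20, 0.15 and 0.08) or wild-type library 2 (0.15). Cidea was at -0.27 without transgenic library 1 and Car3 at 0.13 without wild-type library 4. Adrb3 kept a positive value, from 0.52 to 1.27, with each library left out, and its lowest edgeR adjusted p was 0.113, without wild-type library 1.

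**Figure D5:**
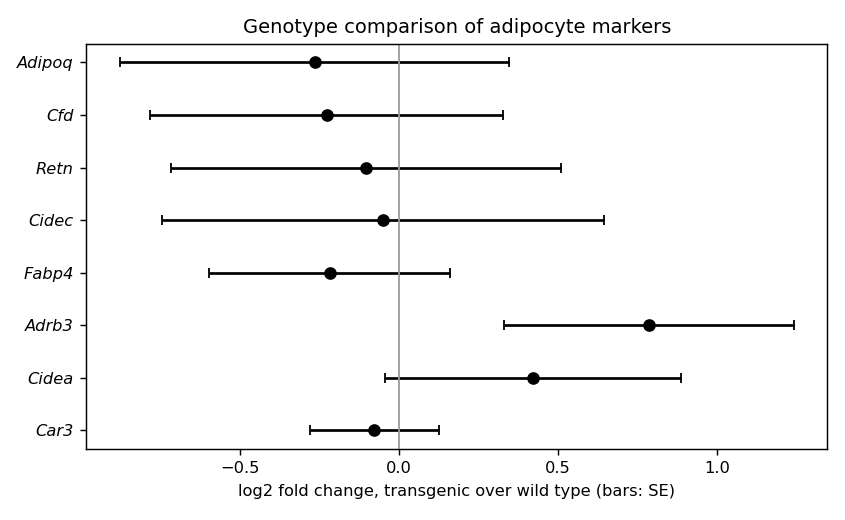
Log2 fold change of 8 adipocyte markers, transgenic over wild type, with bars of 1 SE. The interval of every marker except Adrb3 (0.79 ± 0.46) reaches 0, and none of the 8 passed an adjusted p of 0.05.

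Genes of 4 other fat lists passed the test of genotype, and of 14 genes of adipokine receptors and their targets 0 passed. The share called was 3.57% of white fat genes, 18.2% of brown fat genes, 5% of genes of fatty acid and triglyceride synthesis and 12.5% of genes of lipolysis and the droplet, beside 5.33% of all genes. Of 28 white fat genes tested 1 rose, Rbp4, which encodes retinol binding protein 4, a carrier made mainly in the liver and also in fat. It averaged 23.6 ± 28.2 CPM in transgenic and 3.09 ± 1.27 CPM in wild-type libraries (SD, n = 5 each). On the log2 scale the fold change was 2.94 ± 0.64 (SE), with an adjusted p of 0.0160 in edgeR. Of 11 brown fat genes tested 2 rose. Slc27a2, a very long chain acyl-CoA synthetase that the liver also makes, averaged 31.0 ± 40.1 CPM in transgenic and 2.27 ± 1.28 CPM in wild-type libraries (SD, n = 5 each; adjusted p = 0.0113 in edgeR). Cpn2, a subunit of carboxypeptidase N, a plasma enzyme from the liver, averaged 3.79 ± 4.78 CPM in transgenic and 0.464 ± 0.235 CPM in wild-type libraries (SD, n = 5 each; adjusted p = 0.0347 in edgeR). All 3 were highest in transgenic library 5, where Rbp4 had 73.4 CPM. Of 17 hepatocyte markers tested 15 rose, and the median log2 fold change of all 17 was 3.46. The sum of the 17 lay between 543 and 6300 CPM in transgenic and between 175 and 292 CPM in wild-type libraries. Alb, the albumin gene, was also highest in transgenic library 5, at 3038 CPM. The part of liver transcripts in these 3 genes was not tested.

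In the lists of lipid metabolism, Fads1, a fatty acid desaturase, rose among 20 genes of synthesis (log2 fold change 1.43 ± 0.17, SE; edgeR adjusted p = 0.000400). Of 16 genes of lipolysis and the droplet tested, Plin2, a droplet coat protein made in many tissues, rose by 0.79 ± 0.17 on the log2 scale, and Plin3, another coat protein, fell by 1.64 ± 0.14 (SE; edgeR adjusted p = 0.0137 for Plin2 and 3.50e-05 for Plin3). Plin1, the adipocyte member of the same family, was at -0.10 ± 0.54 on the same scale (SE), with an adjusted p of 0.950 in edgeR. The 10 genes nearest to Adipoq had log2 fold changes from -0.27 to 0.13 (edgeR adjusted p from 0.830 to 0.990).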

How the data were processed

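RNA of biceps femoris from 10 mice was sequenced, and the authors deposited whole-number counts per gene, not normalized, beside their own mean signal per gene, log2 fold change, its standard error and Wald statistic (each a score), and p-values. The submitters' processing notes name HTSeq 0.6.1, DESeq2 1.10, TopHat2 2.1, SAMtools 1.2 and Bowtie2 2.2.6 and the build GRCm38.p4. The strand setting is not given in the sources used here. The 10 count columns match the labels' groups, and 0 columns belong to other samples.

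Low genes were removed with filterByExpr, libraries were scaled by TMM, and genes were fitted with edgeR 4.0.16 (glmQLFit, glmQLFTest) in R 4.3.3 over all 10 libraries without a covariate, and p-values were adjusted over 13338 genes. Log2 CPM used a prior count of 2. Correlations with Adipoq used 100000 resamples and adjustment over 13337 genes. Exon lengths and coordinates come from GENCODE M21 (GRCm38), where 99.7% of 15883 gene IDs were found, and promoter windows from RefSeq. The scripts were tested on simulated data. The members and lists were chosen with earlier results of these data known. Named were all markers, the 10 genes nearest to Adipoq with a mean of at least 1 CPM, and the called genes of the fat lists. The alternatives were RLE size factors, DESeq2 1.42.0, no filter, a robust fit, no rows that resemble ribosomal RNA, a prior count of 0.5, group centring and each library left out. Leaving out transgenic libraries 1 and 2, a block on the column number and the authors' p-values were added after the data were seen. In 20 pairs of libraries of the same group, no pair agreed within sampling noise (chi-square per degree of freedom at least 15.9).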

Additional observations from a re-analysis of the deposited data

Results flagged for a closer look

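Of the 18 groups of 5 libraries that 9 markers gave, 2 held a library that stood far from the others of its group by Dixon's gap test. Chance alone flags about 1 in 20 groups if values are normally distributed and groups independent. The test was run on CPM without a log, and the markers shared their libraries, so that rate may not hold here. Cidea had 5.06 CPM in transgenic library 1 against 0.851 to 1.52 CPM in the other transgenic libraries, and 0.794 to 2.46 CPM in wild-type libraries. The same library was high in Adipoq, at 77.2 CPM, and in lymphocyte markers, at 118 CPM. Lep had 6.14 CPM in wild-type library 1, from 78 counts, against 0.0722 to 0.781 CPM in the other wild-type libraries, while the transgenic libraries held 0.0945 to 0.901 CPM. That library was also the highest in Adipoq, at 104.6 CPM, and in slow fibre markers, at 1912 CPM. The part of these in the levels was not tested.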

How the results depend on the processing

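In each of 18 alternatives 0 markers passed the test of genotype, with a lowest adjusted p of 0.113. With each library left out in turn, the log2 fold change ran from -0.77 to 0.35 for Adipoq, -0.65 to 0.23 for Cfd, -0.69 to 0.52 for Retn, -0.54 to 0.076 for Fabp4, -0.74 to 0.49 for Cidec, -0.27 to 0.62 for Cidea and -0.22 to 0.13 for Car3. Cidea was at -0.36 without transgenic libraries 1 and 2. Adrb3 kept its sign. Lep kept its sign in the settings in which it was fitted. None of these left out wild-type library 1, which held 78 of its 99 wild-type counts, so its dependence on that library was not tested. The Pearson r with Adipoq ran from 0.992 to 0.996 for Cfd, 0.955 to 0.987 for Retn, 0.949 to 0.977 for Fabp4, 0.972 to 0.983 for Cidec and -0.17 to 0.19 for Car3. Calls were lost with 8 libraries: without transgenic libraries 1 and 2 r was 0.992 for Cfd, 0.960 for Retn, 0.964 for Fabp4 and 0.970 for Cidec, and without the 2 libraries farthest from the median of Adipoq it was 0.989, 0.934, 0.926 and 0.963 in the same order. Adrb3 passed with r = 0.875 once each genotype was centred, by a permutation that did not allow for the group means removed. The count of all genes called ran from 450, without wild-type library 3, to 1116, without transgenic library 3, and was 1230 with DESeq2 and 1158 by the authors' p-values. The cause was not tested. The median SD of the markers stayed between 0.90 and 1.17. The labels pair no mice, and libraries that share a column number deviated from their group means with correlations from -0.04 to 0.17. The number alone was also used as a replicate block, added after the data were seen. With it 672 of all genes passed, no marker changed sign, and Adrb3 was at 0.89 ± 0.34 (SE; edgeR adjusted p = 0.201). A block on the number takes up spread that libraries of the same number share. Libraries 1 and 2 of both genotypes were already seen to be the highest in Adipoq. The effect of the block on the SE is therefore no test of a pairing. The SE of the log2 fold change was smaller with the block for each marker tested. It went from 0.61 to 0.26 for Adipoq, 0.56 to 0.22 for Cfd, 0.61 to 0.25 for Retn and 0.69 to 0.30 for Cidec. For Fabp4 it went from 0.38 to 0.23, for Cidea from 0.47 to 0.36 and for Car3 from 0.20 to 0.19. Of the 10 libraries, 4 correlated best with the library of the other genotype that had the same number. Each had 5 libraries of the other genotype to match, so some matches arise by chance, and the count was not tested. Depth limits Lep, Cidea and Adrb3, whose counts were below 100 in every library. It also limits Retn, which had as few as 25 counts, in transgenic library 3.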

Other observations

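The genes nearest to the markers tested whose r with Adipoq did not pass the adjusted threshold were looked up after the values were seen. They were taken among genes with a mean of at least 1 CPM and over the 10 libraries. For Adrb3 the highest r belonged to Stc2, G0s2, Nat8l, Twist1 and Map3k5, from 0.94 to 0.96 (adjusted permutation p from 0.0953 to 0.224). G0s2 encodes an inhibitor of the triglyceride lipase of fat cells, and Nat8l an enzyme that makes N-acetylaspartate. For Cidea the highest was Rny3, with r = 0.96 (adjusted permutation p = 0.133), followed by Cnpy3, Tkt, 8430429K09Rik and Slc25a1. For Car3 it was Lcmt1, with r = 0.88, followed by Tmc7, Taf12, Acad8 and Plb1 (adjusted permutation p = 0.999). None of these 15 relations passed an adjusted p of 0.05.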
